A study of Mus musculus with 16 samples.

Results

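Dietary fat absorption was followed through 10 genes chosen for their function, with earlier results of these data known. They are *Cd36*, *Fabp1*, *Fabp2*, *Mogat2*, *Dgat1*, *Mttp*, *Apob*, *Apoa1*, *Apoa4* and *Apoc3*. All 10 of them were among the 41740 genes listed and among the 15267 genes with enough reads to be tested. RNA from the whole wall of the ileum was sequenced in male STAM mice at 20 weeks of age, a model of diabetic steatohepatitis made by streptozotocin in the newborn and high-fat feeding that began at 4 weeks, so that every mouse, controls included, had received both. Control-STAM-nonINS mice (n = 4, here the saline-treated controls) were Villin-Cre-negative animals with the floxed insulin receptor and received normal saline. Control-STAM-INS mice (n = 6, the insulin-treated controls) had the same genotype and received the long-acting insulin degludec from 6 weeks of age, and ieIRKO-STAM-INS mice (n = 6, the ieIRKO mice) carried Villin-Cre with the floxed receptor and received the same insulin. Villin-Cre is active in the intestinal epithelium, while the whole wall also holds muscle, vessels, fat, nerves and immune cells. No normal lean mice and no ieIRKO mice without insulin were analysed here, so the action of the deletion without insulin cannot be read from these groups.

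Enterocytes take up fatty acids and monoacylglycerols from the gut lumen, bind the fatty acids to small cytosolic carrier proteins and rebuild triglycerides at the endoplasmic reticulum. Microsomal transfer protein loads the triglycerides onto apolipoprotein B, other apolipoproteins join the particle, and the chylomicron leaves through the Golgi towards the lymph. Most dietary fat is taken up before the ileum, and the ileum receives what is left.

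The libraries held between 13288018 and 22215382 counted reads, and the 10 genes took up between 0.463% and 2.51% of them. The ileal label was checked with *Fabp6*, the ileal bile acid carrier, which lay between 3265 and 7844 CPM (the usual per-million scale, with TMM-adjusted library sizes), and with the bile acid transporter *Slc10a2*, which lay between 317 and 2041 CPM. *Insr*, the gene targeted in ieIRKO mice, had 105 ± 12.2 CPM (SD, n = 4) in the saline-treated controls, 62.7 ± 10.1 (SD, n = 6) in the insulin-treated controls and 67.2 ± 13.3 (SD, n = 6) in the ieIRKO mice. It was therefore not lower in the libraries labelled as ieIRKO than in the insulin-treated controls (log2 fold change 0.10, SE 0.13, adjusted p = 0.805 by edgeR). Reads were counted over the whole gene, and which exon was deleted is not given in the sources used here, so these counts do not check the epithelial deletion, and the genotype was taken from the label. In bulk tissue, fewer cells of a type and less RNA per cell cannot be told apart.

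The 10 genes covered a wide range of levels. Per kilobase of exon, *Apoa1* stood highest with a median of 4994 CPM per kb over the 16 libraries, followed by *Fabp2* with 3838. Both encode products made in bulk by enterocytes, the main apolipoprotein of high-density lipoprotein and the intestinal fatty acid binding protein. Their ranges overlapped, from 1619 to 7412 CPM per kb for *Apoa1* and from 610 to 8460 for *Fabp2*. In the saline-treated controls the order of the means turned, with 6089 CPM per kb for *Fabp2* and 5946 for *Apoa1*, within their spread. *Apoa4* and *Apob* followed with medians of 526 and 180 CPM per kb. *Mogat2*, *Mttp* and *Dgat1* lay together at 129, 122 and 121 CPM per kb, and these neighbours did not differ beyond their spread over the libraries. *Apoc3* had 57.8, *Fabp1* 36.7 and *Cd36* 6.19 CPM per kb. The place of *Fabp1* differed with the group, since its mean was 154 CPM per kb in the saline-treated controls, between *Apoa4* and *Apob*, and 25.9 and 32.2 in the insulin-treated controls and the ieIRKO mice. The scavenger receptor *Cd36* was thus the least abundant of the 10 in this tissue.

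**Figure D1:**
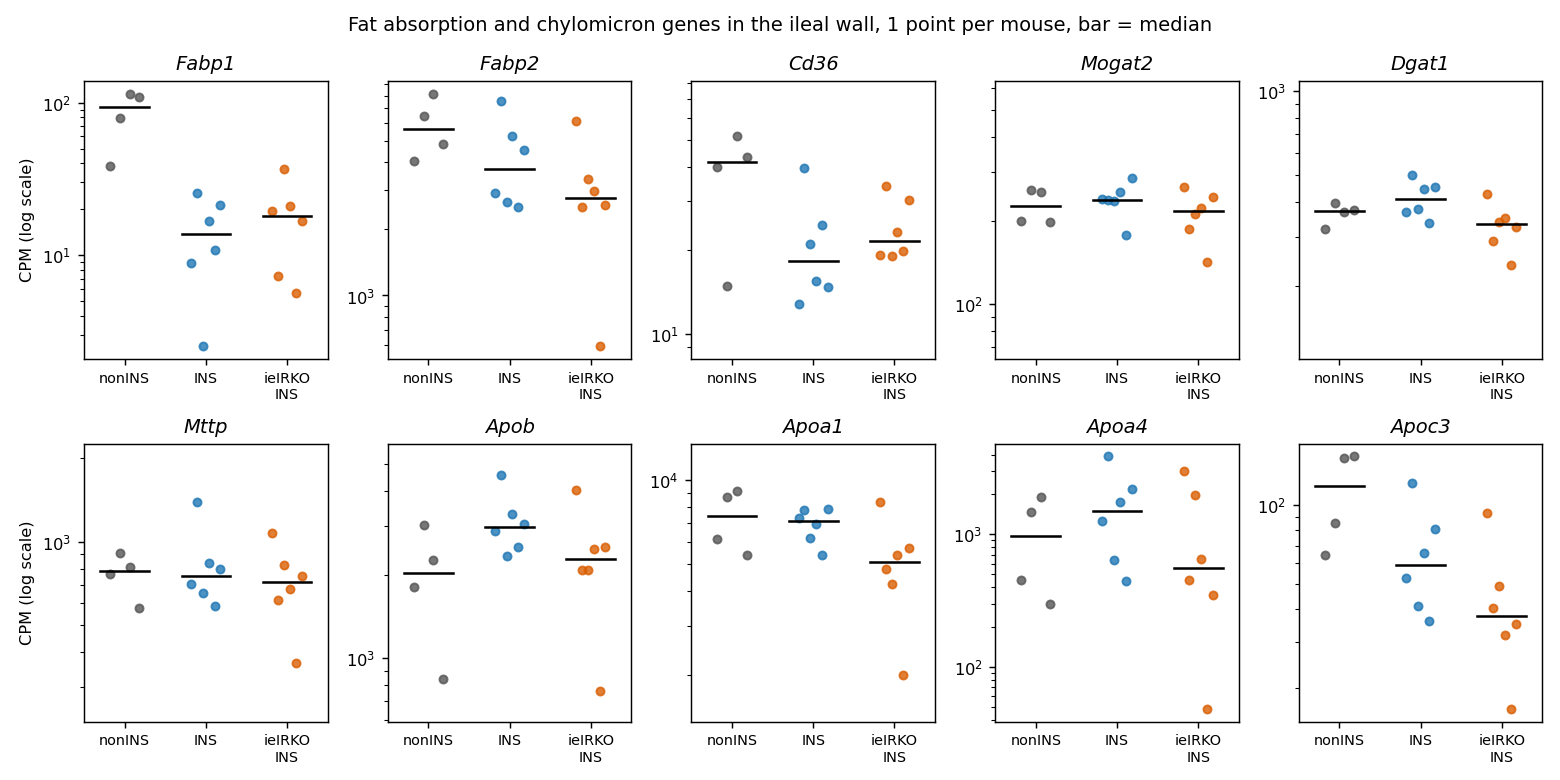
Level of each of the 10 genes in the 3 groups, in CPM on a log axis, with 1 point per mouse and a bar at the group median. *Fabp1* is the gene whose 4 saline-treated controls (38.2 to 115 CPM) lie above every insulin-treated mouse (2.52 to 36.6 CPM), whereas the groups overlap for the other 9 genes.

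The first comparison asked how insulin treatment of diabetic mice changed these genes in the control genotype. Between the insulin-treated controls and the saline-treated controls, *Fabp1* fell and no other member passed the test, which makes 1 of 10 members. Among all tested genes, 10.5% passed here (adjusted p under 0.05), so the members' share lay near that of all genes. The groups did not overlap for 1 of 10 members, against 10.6% of all genes. The median log2 fold change was -0.01 over the members and 0 over all tested genes.

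*Fabp1* encodes the liver-type fatty acid binding protein, which enterocytes of the small intestine and hepatocytes share. The 4 saline-treated controls had 38.2, 78.8, 115 and 109 CPM of *Fabp1*. In the insulin-treated controls the lowest of the 6 mice had 2.52, the median was 13.8 and the highest was 25.5 CPM. In the ieIRKO mice the lowest had 5.66, the median was 18.1 and the highest was 36.6 CPM. All 12 insulin-treated mice thus lay below all 4 saline-treated controls, whatever their genotype, although the highest ieIRKO mouse came close to the lowest saline-treated one. The lowest library still held 42 reads of *Fabp1*, so the gene was detected in every mouse. The group means were 85.0 ± 34.9 CPM (SD, n = 4), 14.3 ± 8.52 (SD, n = 6) and 17.8 ± 11.2 (SD, n = 6). With insulin, the log2 fold change was -2.57 in the control genotype (SE 0.57, 95% confidence interval -3.68 to -1.46, adjusted p = 0.0117 by edgeR). The exact permutation test of log2 CPM (two-sided) gave p = 0.00476, the smallest that its 210 arrangements allow. Over the 30 such tests made on the members the adjusted p was 0.0714, which did not pass. At this smallest p a test cannot pass after adjustment unless more of the 30 tests also reach it. With the replicate number as a block, the log2 fold change was -2.35 and its call was lost (adjusted p = 0.0659 by edgeR). The sources used here do not say whether these numbers pair the mice, and a pairing was not excluded.

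*Fabp2* encodes the intestinal fatty acid binding protein, a close relative of *Fabp1* found in the same cells. Its values were 4047, 6438, 8164 and 4855 CPM in the saline-treated controls. They ran from 2507 through a median of 3730 to 7590 CPM in the insulin-treated controls, and from 589 through 2767 to 6143 CPM in the ieIRKO mice. These ranges overlapped, and *Fabp2* had a log2 fold change of -0.47 with insulin (SE 0.46, 95% confidence interval -1.37 to 0.44, adjusted p = 0.575 by edgeR). It was -0.26 without Control-STAM-nonINS replicate 3 and -0.72 without Control-STAM-INS replicate 2. The ratio of *Fabp1* to *Fabp2* within a library was chosen after the values were seen, so it is given as a description without a test. On the log2 scale it lay between -6.72 and -5.48 in the saline-treated controls, between -9.97 and -7.72 in the insulin-treated controls and between -8.41 and -6.51 in the ieIRKO mice. The ratios of the insulin-treated controls thus lay below those of the saline-treated controls, while those of the ieIRKO mice overlapped both groups. The ratio of *Fabp1* to the summed CPM of 15 brush border genes that do not handle fat lay between -9.67 and -7.78 in the saline-treated controls, -13.37 and -10.36 in the insulin-treated controls, and -11.81 and -9.32 in the ieIRKO mice.

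The promoters of these carriers are shown because *Fabp1* changed and its relative did not pass the test. The sequences are from RefSeq on GRCm38.p6 and cover 250 bases before the transcript start on the plus strand, at chr6:71199629-71199878 for *Fabp1* and chr3:122894822-122895071 for *Fabp2*. The GENCODE model of *Fabp1* (chromosome 6, 71199827 to 71205023) starts within its window, while that of *Fabp2* (chromosome 3, 122895072 to 122899506) starts right after it. Capitals mark the motifs found.
Fabp1: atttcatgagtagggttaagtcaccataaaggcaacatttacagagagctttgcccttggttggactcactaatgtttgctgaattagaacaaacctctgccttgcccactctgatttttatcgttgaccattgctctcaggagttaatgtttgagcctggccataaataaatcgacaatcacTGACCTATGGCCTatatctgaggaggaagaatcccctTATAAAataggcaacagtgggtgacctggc
Fabp2: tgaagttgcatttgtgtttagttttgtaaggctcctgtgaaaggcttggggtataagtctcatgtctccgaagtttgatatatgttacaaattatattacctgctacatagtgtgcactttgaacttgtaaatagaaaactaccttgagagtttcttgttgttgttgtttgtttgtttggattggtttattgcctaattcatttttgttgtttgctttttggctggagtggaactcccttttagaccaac
Both strands were searched for 4 motifs, and the matches did not overlap each other. The first was TGNCCT repeated in the same direction with 1 base between, a form of element that nuclear receptors such as HNF4A and PPAR-alpha with RXR are known to bind, and the others were the HNF4 core CAAAGTCCA, the TATA box TATAAA and the GATA site AGATAA. The *Fabp1* window held the repeat as TGACCTATGGCCT at -67 to -55 from the start and a TATA box at -30 to -25, and the *Fabp2* window held none of the 4. Among 32817 mouse promoters of the same length, 0.338% held the repeat, 0.384% the HNF4 core, 12.4% the TATA box and 9.99% the GATA site. Sequences were found for 7 of the 10 members, and of the other 5 only *Apob* held a motif, a TATA box. These are matches of letters, and binding was not measured.

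*Cd36*, which takes up long-chain fatty acids at the cell surface, had 40.0, 14.9, 51.7 and 43.3 CPM in the saline-treated controls. Its range was 12.8 to 39.5 CPM with a median of 18.3 in the insulin-treated controls. The groups overlapped through a single saline-treated mouse, replicate 2, which lay near the low end of the insulin-treated ones, and the highest insulin-treated mouse, also numbered 2, came just below the other 3 saline-treated ones. The log2 fold change was -0.82 (SE 0.34, adjusted p = 0.139 by edgeR). Without Control-STAM-nonINS replicate 2 it was -1.07 with an adjusted p of 0.0289, and without Control-STAM-INS replicate 2 it was -1.08 with an adjusted p of 0.0395, so either library decided the call. *Cd36* is also expressed by adipocytes and capillary endothelium. The summed level of 9 adipocyte genes ran from 561 to 893 CPM in the saline-treated controls, from 152 to 462 in the insulin-treated controls and from 79.1 to 474 in the ieIRKO mice, with *Pck1*, which enterocytes also express, as the 1 of the 9 that passed in the insulin comparison. *Pck1* alone had a mean of 345 CPM in the saline-treated controls, 36.8 in the insulin-treated controls and 81.5 in the ieIRKO mice, so it made up much of the difference in that sum. Of the 9 genes, 8 had estimates below 0 with insulin in the control genotype and 1 above 0. Their median log2 fold change was -0.77, against 0 over all tested genes. The adipocyte genes *Adipoq*, *Plin1*, *Lep*, *Retn* and *Cfd* were at 0 in some libraries, and *Adipoq* reached at most 27.4 CPM. Of 6 endothelial genes, 3 fell with insulin, where 10.5% of all tested genes passed. The sum of the 6 ran from 107 to 146 CPM in the insulin-treated controls and from 116 to 170 CPM in 3 of the saline-treated controls, with 305 CPM in replicate 4. The part of these cells in the *Cd36* values was not tested.

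Of the enzymes that rebuild triglycerides, *Mogat2* acylates monoacylglycerol and *Dgat1* completes the triglyceride. Their levels were among the steadiest of the 10. *Mogat2* had 227 ± 33.1 CPM (SD, n = 4) in the saline-treated controls and 238 ± 34.7 (SD, n = 6) in the insulin-treated controls, with a log2 fold change of 0.07 (95% confidence interval -0.23 to 0.37). *Dgat1* had 365 ± 31.9 CPM (SD, n = 4) and 413 ± 61.9 (SD, n = 6), with a log2 fold change of 0.18 (95% confidence interval -0.10 to 0.46). *Mttp*, the transfer protein, had 765 ± 141 CPM (SD, n = 4) and 828 ± 289 (SD, n = 6), with a log2 fold change of 0.11 (95% confidence interval -0.40 to 0.63). None of these passed, and their intervals exclude a change as large as that of *Fabp1* in either direction.

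*Apob* encodes the structural protein of the chylomicron. It had 1810.0, 3004, 2259 and 841 CPM in the saline-treated controls. In the insulin-treated controls it ran from 2329 through a median of 2957 to 4573 CPM. The insulin-treated mice sat in the upper part of the range, with 1 saline-treated mouse among them. The log2 fold change was 0.65 (SE 0.38, adjusted p = 0.298 by edgeR) and did not pass, and the exact permutation test gave p = 0.0429 before and 0.257 after adjustment over the 30 tests. Without Control-STAM-nonINS replicate 4, the mouse with 841 CPM, the log2 fold change was 0.40. That library stood apart from the other saline-treated controls. Its 6 villus tip genes summed to 1095 CPM against 2876 to 3830 in the other 3, its 10 pan-epithelial genes to 10610 against 15740 to 16980 CPM, and its 6 endothelial genes to 305 against 116 to 170 CPM. The part of its cell content in the *Apob* values was not tested.

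*Apoa1*, *Apoc3* and *Apoa4* are neighbours on chromosome 9 (GRCm38), from 46228580 to 46243459, and their products ride on chylomicrons. *Apoc3*, an inhibitor of lipoprotein lipase, had 64.5, 85.7, 151 and 153 CPM in the saline-treated controls, and 36.2 to 121 CPM with a median of 59.3 in the insulin-treated controls. Its log2 fold change was -0.78 (SE 0.43, adjusted p = 0.28 by edgeR), opposite in sign to that of *Apob*. The ratio of *Apoc3* to *Apob* within a library, also chosen after the values were seen and given as a description, lay between -5.13 and -2.46 on the log2 scale in the saline-treated controls, -6.12 and -5.22 in the insulin-treated controls and -6.28 and -5.40 in the ieIRKO mice. Against the summed brush border genes, the *Apoc3* ratios of the 3 groups overlapped, from -8.91 to -7.28, from -9.51 to -8.13 and from -9.52 to -8.72. *Apoa1* had 7349 ± 1852 CPM (SD, n = 4) without and 6922 ± 973 (SD, n = 6) with insulin, a log2 fold change of -0.09 (95% confidence interval -0.61 to 0.44). *Apoa4* had a log2 fold change of 0.70 with a 95% confidence interval from -1.12 to 2.53, so its size was poorly determined, and the estimate was 0.28 without Control-STAM-INS replicate 2.

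**Figure D2:**
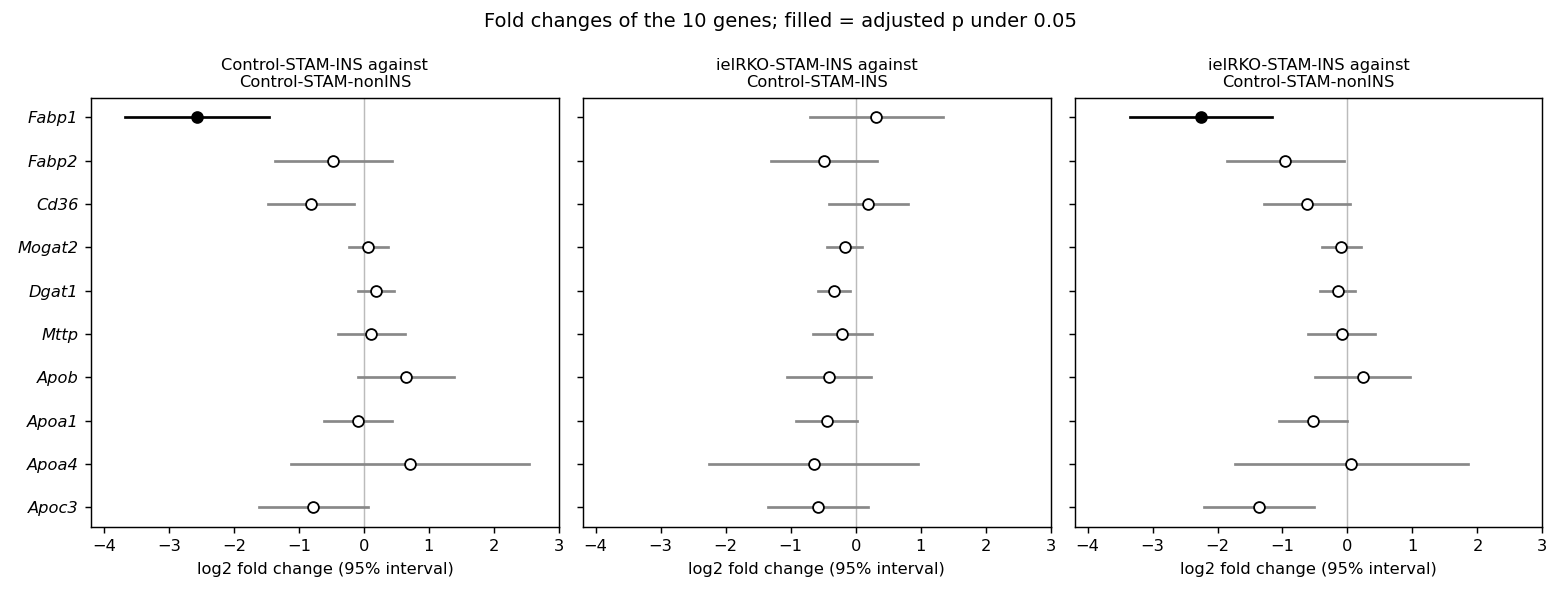
Log2 fold change of each of the 10 genes with its 95% confidence interval in the 3 comparisons, where filled points have an adjusted p under 0.05 by edgeR. *Fabp1* is filled in both comparisons with the saline-treated controls, at -2.57 and -2.25, and no point is filled between the insulin-treated groups.

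The second comparison set the epithelial receptor knockout against the control genotype, both with insulin. None of the 10 members passed with edgeR (0 of 10), and 0 passed with DESeq2 or the likelihood ratio test. Of all tested genes 0.223% passed, and the groups overlapped for every member, against 0.845% of all genes without overlap. At an unadjusted p under 0.05 there was 1 member of the 10, *Dgat1*, against 11.3% of all tested genes. The median log2 fold change of the members was -0.37 and that of all tested genes 0.02, with 8 of the 10 estimates below 0.

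*Dgat1* ran from 336 through a median of 411 to 500 CPM in the insulin-treated controls and from 237 through 333 to 427 CPM in the ieIRKO mice. Its log2 fold change was -0.33 (SE 0.13, adjusted p = 0.35 by edgeR; exact permutation test, p = 0.039 before and 0.257 after adjustment). *Apoa1* ran from 5383 through 7143 to 7860 CPM in the insulin-treated controls and from 2001 through 5094 to 8361 CPM in the ieIRKO mice, with a log2 fold change of -0.45 (SE 0.24, adjusted p = 0.508). Both genes had lower medians in the knockout group, but a knockout mouse also held the highest *Apoa1* of these 12. *Fabp1* had a log2 fold change of 0.32 (SE 0.52, 95% confidence interval -0.70 to 1.34, adjusted p = 0.854). *Cd36* had 0.19, with an interval from -0.41 to 0.80. The intervals of *Apob* (-1.06 to 0.23), *Apoc3* (-1.35 to 0.19), *Fabp2* (-1.31 to 0.33), *Mttp* (-0.66 to 0.25) and *Mogat2* (-0.43 to 0.10) all included 0. For *Apoa4* it ran from -2.25 to 0.96. That interval holds both a large fall and no change.

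The lower estimates rested in part on single mice. ieIRKO-STAM-INS replicate 5 had the lowest level of all 16 libraries in 8 of the 10 members, all but *Cd36* and *Fabp1*. In that mouse *Apoa4* had 47.9 CPM, *Fabp2* 589 CPM and *Apob* 765 CPM. The same library had the lowest summed level of the 15 brush border genes, 12050 CPM against 23400 to 39290 elsewhere, and the highest sum of 6 B and plasma cell genes, 3115 CPM. That sum lay higher in every ieIRKO mouse than in any insulin-treated control, with 1655 to 3115 CPM in the ieIRKO mice against 959 to 1541 CPM in the insulin-treated controls. All 6 of its genes had estimates above 0 between the genotypes, none past the test with edgeR, and *Cd79a*, *Jchain* and *Mzb1* passed as higher in the ieIRKO mice against the saline-treated controls. Without ieIRKO-STAM-INS replicate 5, the log2 fold changes between the genotypes were -0.24 for *Apob*, -0.28 for *Apoa1*, -0.39 for *Apoa4*, -0.28 for *Fabp2* and -0.26 for *Dgat1*, and again 0 members passed with edgeR. Control-STAM-INS replicate 2 held the highest level of all 16 libraries in *Apob*, *Apoa4*, *Mttp* and *Dgat1*. Without that mouse the estimate was -0.22 for *Apoa4* and 0.002 for *Mttp*. All 15 brush border genes but 1 also had estimates below 0 between the genotypes, with a median of -0.28 and none past the test. The part of enterocyte content or of B and plasma cells in the members' values was not tested.

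**Figure D3:**
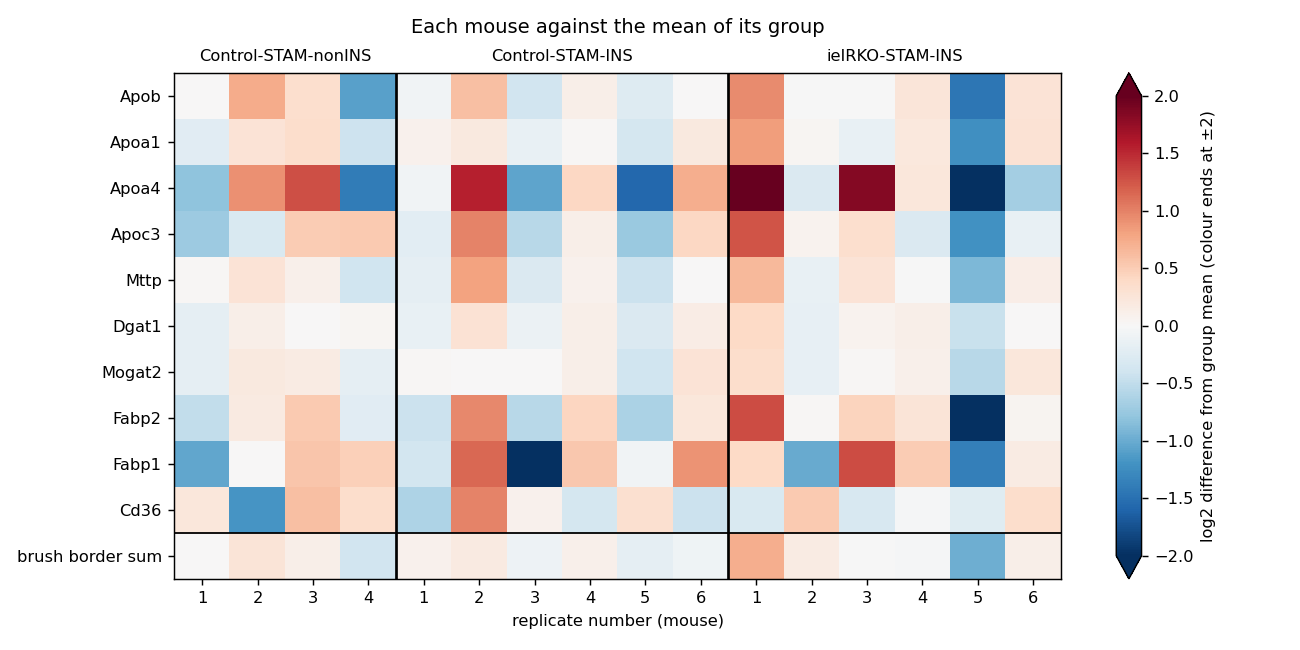
Log2 level of each of the 10 genes and of the summed brush border genes in each mouse, as the difference from the mean of its group (colour, red above and blue below), with mice in columns by group and replicate number. Most genes rise and fall together from mouse to mouse, and ieIRKO-STAM-INS replicate 5 is blue in all rows, palest for *Cd36*.

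The third comparison set the ieIRKO mice against the saline-treated controls, which differ in genotype and in insulin at once, so these cannot be told apart. It shares its saline-treated mice with the first and its knockout mice with the second, so it is no independent repeat. *Fabp1* was lower, and it was the only member that passed, 1 of 10 against 13.3% of all tested genes. The groups did not overlap for 1 of 10 members, against 8.56% of all genes. *Fabp1* had a log2 fold change of -2.25 (SE 0.56, 95% confidence interval -3.35 to -1.16, adjusted p = 0.0181 by edgeR). The exact permutation test gave p = 0.00476, again the smallest possible, and an adjusted p of 0.0714 over the 30 tests. With the replicate number as a block the edgeR call was lost (-2.13, adjusted p = 0.0679). Without Control-STAM-nonINS replicate 3 its adjusted p was 0.0505. *Apoc3* had 93.0 CPM in the highest and 16.7 in the lowest ieIRKO mouse, with a median of 37.9. Its log2 fold change of -1.36 lay close to the threshold (SE 0.43, adjusted p = 0.0518 by edgeR), and DESeq2 gave -1.35 with an adjusted p of 0.0227. Without ieIRKO-STAM-INS replicate 1, the mouse with the 93.0 CPM, *Apoc3* had -1.71 with an adjusted p of 0.012 and *Apoa1* -0.73 with 0.0479. The *Apoa4* estimate was 0.06 by edgeR while its mean log2 CPM differed by -0.50, so its direction was not determined.

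Markers of region and cell type were read in the same comparisons, and single genes of some lists passed. A list of 5 genes of the distal ileum summed to between 7939 and 11580 CPM in the saline-treated controls, 6294 and 9536 in the insulin-treated controls, and 5410 and 8549 in the ieIRKO mice. In this list *Fabp6* passed as lower in the ieIRKO mice against the saline-treated controls (log2 fold change -0.59, adjusted p = 0.0338 by edgeR). A list of 6 genes of the proximal small intestine summed to 47.0 to 85.2, 74.3 to 122 and 71.8 to 162 CPM, and most of that sum was the iron exporter *Slc40a1*, with means of 42.7, 84.7 and 102 CPM. Of its 4 tested genes, *Slc40a1* passed as higher and the iron reductase *Cybrd1* as lower in both comparisons with the saline-treated controls, and their median log2 fold changes were -0.39 and -0.35. The brush border sum ran from 23840 to 37040 CPM in the saline-treated controls from 26480 to 33860 in the insulin-treated controls and from 12050 to 39290 in the ieIRKO mice, so the sum did not separate the groups. Of its 15 genes, 10 had estimates above 0 with insulin in the control genotype (median log2 fold change 0.19), 0 passed with edgeR, and 2 did not overlap, against 10.6% of all genes. These were the disaccharidases *Mgam* (means of 5295 and 3355 CPM, adjusted p = 0.0692 by edgeR) and *Sis* (5242 and 2543 CPM, adjusted p = 0.104), both lower with insulin. *Mgam* and *Treh* passed as lower in the ieIRKO mice against the saline-treated controls. The 8 hepatocyte genes summed to between 278 and 480 CPM, most of it *Cps1* (264 to 398 CPM), which the intestine also expresses. *Alb* lay between 0 and 8.36 CPM and was at 0 in 5 libraries, and *Ahsg*, *Fgb* and *Serpina1a* were also at 0 in some. The part of the sampled region in the *Fabp1* values was not tested.

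Within the groups, several of the 10 genes varied far more than most genes. *Apoa4*, an apolipoprotein that enterocytes are known to raise after a fatty meal, had 450, 1484, 1925 and 298 CPM in the saline-treated controls. It ran from 445 through a median of 1509 to 3873 CPM in the insulin-treated controls, and from 47.9 through 554 to 3008 CPM in the ieIRKO mice. Between the lowest and the highest mouse it differed 80.8-fold, and mice at both ends were found in the insulin-treated groups. Its within-group SD on the log2 scale was 1.62, larger than that of 99.7% of all tested genes. *Fabp1* followed with 1.03, larger than 98.4%, *Fabp2* with 0.83, larger than 96.7%, and *Apoc3* with 0.71, larger than 94.4%. *Dgat1* and *Mogat2* had 0.23 and 0.26, near the median of 0.244 over all genes.

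The mouse-to-mouse differences were shared by most members. With the group means removed, the 28 pairs among the 8 members other than *Cd36* and *Fabp1* had Pearson correlations between 0.53 and 0.94 over the 16 libraries, and 25 of them were over 0.7. Spearman's rho lay between 0.45 and 0.93. With permutations of the mice within groups and adjustment over all 45 pairs of members, 27 of the 28 had an adjusted p under 0.05 by Pearson's r and 25 by Spearman's rho. The closest pair was *Apoa4* and *Fabp2*, with r = 0.94 and rho = 0.93 (permutation test, p = 1e-05 for both, the smallest that 100000 permutations can give, adjusted p = 0.00027 and 0.00045). Their r was 0.86 without the 2 mice farthest from the median of *Apoa4*, and it was 0.89, 0.93 and 0.96 within the 3 groups of 4, 6 and 6 mice. Other pairs of the 8 were less alike within the 4 saline-treated controls, where r was -0.49 for *Apoc3* and *Mttp* and -0.44 for *Apoc3* and *Apob*. Without ieIRKO-STAM-INS replicate 5, the 28 pairs had correlations between 0.29 and 0.90, and 15 were over 0.7, so the closeness of many pairs rested in part on that mouse. Marker sums moved from mouse to mouse with these 8 members too. With the group means removed, r over the 16 libraries was 0.63 to 0.94 for the brush border genes, 0.72 to 0.82 for the distal ileum, 0.55 to 0.86 for the adipocyte list and -0.80 to -0.59 for 6 smooth muscle genes. In the adipocyte list, *Lipe*, *Pck1*, *Cidec* and *Fabp4* had medians of 82.2, 56.0, 39.3 and 38.0 CPM over the 16 libraries. *Adipoq*, *Plin1*, *Lep*, *Retn* and *Cfd* had medians of 0.94 to 3.57 CPM, so they added little to that sum. The part of region and cell content in the correlations was not tested.

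*Fabp1* joined the others more loosely, with r from 0.43 to 0.70 and rho from 0.40 to 0.81 in its 8 pairs without *Cd36*, of which 5 had an adjusted p under 0.05 by the permutation test. *Cd36* stood apart. Its 9 pairs had r between -0.26 and 0.21 and rho between -0.34 and 0.19, and the lowest adjusted p of r was 0.398 by the permutation test. No relation of *Cd36* to the other members was detectable in these mice.

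**Figure D4:**
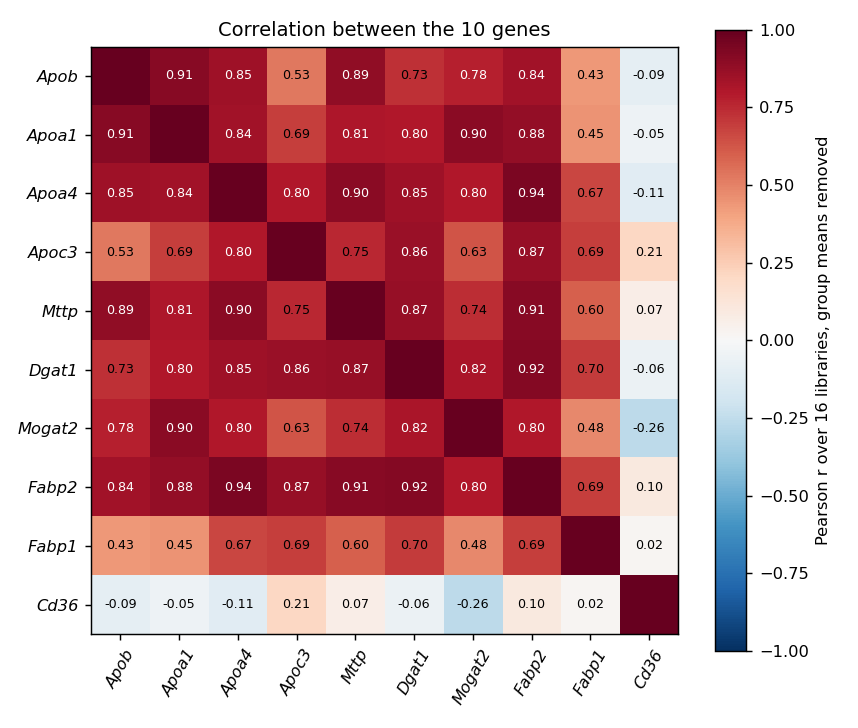
Pearson correlation between each pair of the 10 genes over the 16 libraries after the group means were removed (colour from -1 to 1, value printed in each cell). The 8 genes from *Apob* to *Fabp2* form a block with r from 0.53 to 0.94, while *Cd36* lies between -0.26 and 0.21 with every other gene.

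Over all tested genes, those whose log2 level followed the mean of the 10 members most closely across the 16 libraries were *Creb3l3* (r = 0.958), *Ahcyl2* (0.940), *Acsl5* (0.931) and *Lpcat3* (0.929). *Creb3l3* is a membrane-bound transcription factor of liver and intestine, *Acsl5* activates long-chain fatty acids and *Lpcat3* remodels phospholipids. For *Fabp1* the closest were *Acaa1b* (0.943), a peroxisomal thiolase, *Retsat* (0.909), which saturates retinol, and *Pdk4* (0.894), a brake on pyruvate oxidation. These values describe the 16 libraries, whose group differences they include.

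The neighbouring steps of fat handling were read from 79 further genes in 5 lists, of which 74 were tested. The lists were written from general knowledge, but with earlier results of these data known. With insulin in the control genotype, 8 of the 74 passed, 2 higher and 6 lower, which is 10.8% against the 10.5% of all genes. All libraries gave 1602 calls over all genes. The list count was 3 (of all genes, 824) without Control-STAM-nonINS replicate 1, 4 (1070 and 1229) without replicate 3 of that group or Control-STAM-INS replicate 3, 5 (1215 and 1170) without Control-STAM-INS replicate 5 or 6, and 5 (728) after scaling to pan-epithelial genes. It rose to 11 (1877) without Control-STAM-nonINS replicate 2 and to 9 (2083) with DESeq2. Between the genotypes 0 of 74 passed with edgeR, 0 with DESeq2 or the likelihood ratio test, and 5 had an unadjusted p under 0.05, against 11.3% of all genes. Against the saline-treated controls, 7 of the 74 passed in the ieIRKO mice, 2 higher and 5 lower, which is 9.46% against the 13.3% of all genes. There the count was 4 without Control-STAM-nonINS replicate 3, 13 without replicate 4 of that group, 11 without ieIRKO-STAM-INS replicate 1 and 11 with DESeq2, while 1372, 1898, 2274 and 2665 of all genes passed in these fits against 2036 with all libraries. The values are therefore given for single genes.

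Among 12 genes of fatty acid uptake, binding and activation, 3 fell with insulin, where 10.5% of all tested genes passed. The median log2 fold change was -0.31 in this list and 0 over all tested genes, and the list was not tested as a set. *Acsf2*, a mitochondrial acyl-CoA synthetase, had 163 ± 23.5 CPM (SD, n = 4) in the saline-treated controls, 67.9 ± 15.4 (SD, n = 6) in the insulin-treated controls and 49.8 ± 13.8 (SD, n = 6) in the ieIRKO mice. Its log2 fold changes against the saline-treated mice were -1.26 (adjusted p = 0.00164 by edgeR) and -1.71 (adjusted p = 0.000188), with no overlap of the groups, and it passed in every fit that left out 1 library. *Slc27a2*, a very long-chain acyl-CoA synthetase, fell with insulin in the control genotype (log2 fold change -0.93, adjusted p = 0.0326) and had -0.65 (adjusted p = 0.107, not passed) in the ieIRKO mice. *Acsl1*, a long-chain acyl-CoA synthetase, had -0.63 (adjusted p = 0.03) and -0.68 (adjusted p = 0.0169). The insulin calls of *Slc27a2* and *Acsl1* were each lost in 6 of the 10 fits without 1 library, with adjusted p up to 0.102 without Control-STAM-nonINS replicate 4 and 0.109 without replicate 3. The *Acsl1* call in the ieIRKO mice was lost without Control-STAM-nonINS replicate 1 (adjusted p = 0.0681) or replicate 3 (adjusted p = 0.0697).

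Of 12 genes of lipid droplets and triglyceride hydrolysis, 2 fell with insulin, where 10.5% of all tested genes passed. The median log2 fold change of this list was -0.31, against 0 over all tested genes, and it was not tested as a set. *Mgll*, the monoacylglycerol lipase, which acts on the substrate that *Mogat2* re-esterifies, had 57.2 ± 17.1 CPM (SD, n = 4) in the saline-treated controls, and 34.1 ± 1.93 and 34.1 ± 2.84 (SD, n = 6 each) in the insulin-treated groups. The lowest saline-treated mouse had 37.0 and the highest insulin-treated mouse 36.7 CPM. Its log2 fold change was -0.75 in both comparisons (adjusted p = 0.00222 and 0.00195 by edgeR), and it passed in every fit that left out 1 library. *Fitm2*, which helps lipid droplets form, had -0.51 (adjusted p = 0.0076) with insulin and -0.33 (adjusted p = 0.0565) in the ieIRKO mice.

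Of 14 genes of triglyceride and phospholipid synthesis, the phosphatidate phosphatase *Lpin1* fell in both comparisons, by 0.75 and 0.95 on the log2 scale (adjusted p = 0.022 and 0.00459 by edgeR). The first of these calls was lost without Control-STAM-nonINS replicate 1 (adjusted p = 0.0998) or replicate 3 (adjusted p = 0.103), the mice with the highest *Lpin1*. *Cept1*, which makes phosphatidylcholine and phosphatidylethanolamine, had -0.37 (adjusted p = 0.0166) in the ieIRKO mice against the saline-treated controls, a call lost without Control-STAM-nonINS replicate 1 (adjusted p = 0.0814) or replicate 3 (adjusted p = 0.0691). In the export list of 18 genes, those that passed were higher. *Surf4*, a cargo receptor that takes lipoproteins out of the endoplasmic reticulum, had 248 ± 20.3, 307 ± 20.9 and 300.0 ± 24.7 CPM (SD, n = 4, 6 and 6), with log2 fold changes of 0.30 and 0.27 (adjusted p = 0.0354 and 0.0489 by edgeR). *Sec23b*, a coat component of the vesicles that leave there, had 0.41 and 0.51 (adjusted p = 0.0351 and 0.00956). With insulin, the *Surf4* call was lost in 7 and the *Sec23b* call in 8 of the 10 fits without 1 library, up to adjusted p of 0.102 and 0.111 without Control-STAM-nonINS replicate 4. In the ieIRKO mice the *Surf4* call was lost in 8 of 10 such fits, while *Sec23b* passed in all 10. Of 18 transcription factors known for these genes, 0 passed in the quasi-likelihood test of edgeR with all libraries in any of the 3 comparisons, and 1, 1 and 4 of the 18 had an unadjusted p under 0.05, against 25.4%, 11.3% and 29.4% of all tested genes. DESeq2 called 0 in the first and the second comparison and 2 in the third, *Ppara*, which drives fatty acid oxidation genes, and its coactivator *Ppargc1a*, for which edgeR gave log2 fold changes of -0.86 (adjusted p = 0.103) and -0.80 (adjusted p = 0.0603). In that comparison the likelihood ratio test of edgeR also called *Ppargc1a*. Without single libraries edgeR called *Ppara* and *Ppargc1a* (without ieIRKO-STAM-INS replicate 1), *Ppargc1a* (without replicate 4 of that group), *Ppargc1a* and *Nr1h4* (without Control-STAM-nonINS replicate 4) and *Pparg* (without replicate 2 of that group).

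**Figure D5:**
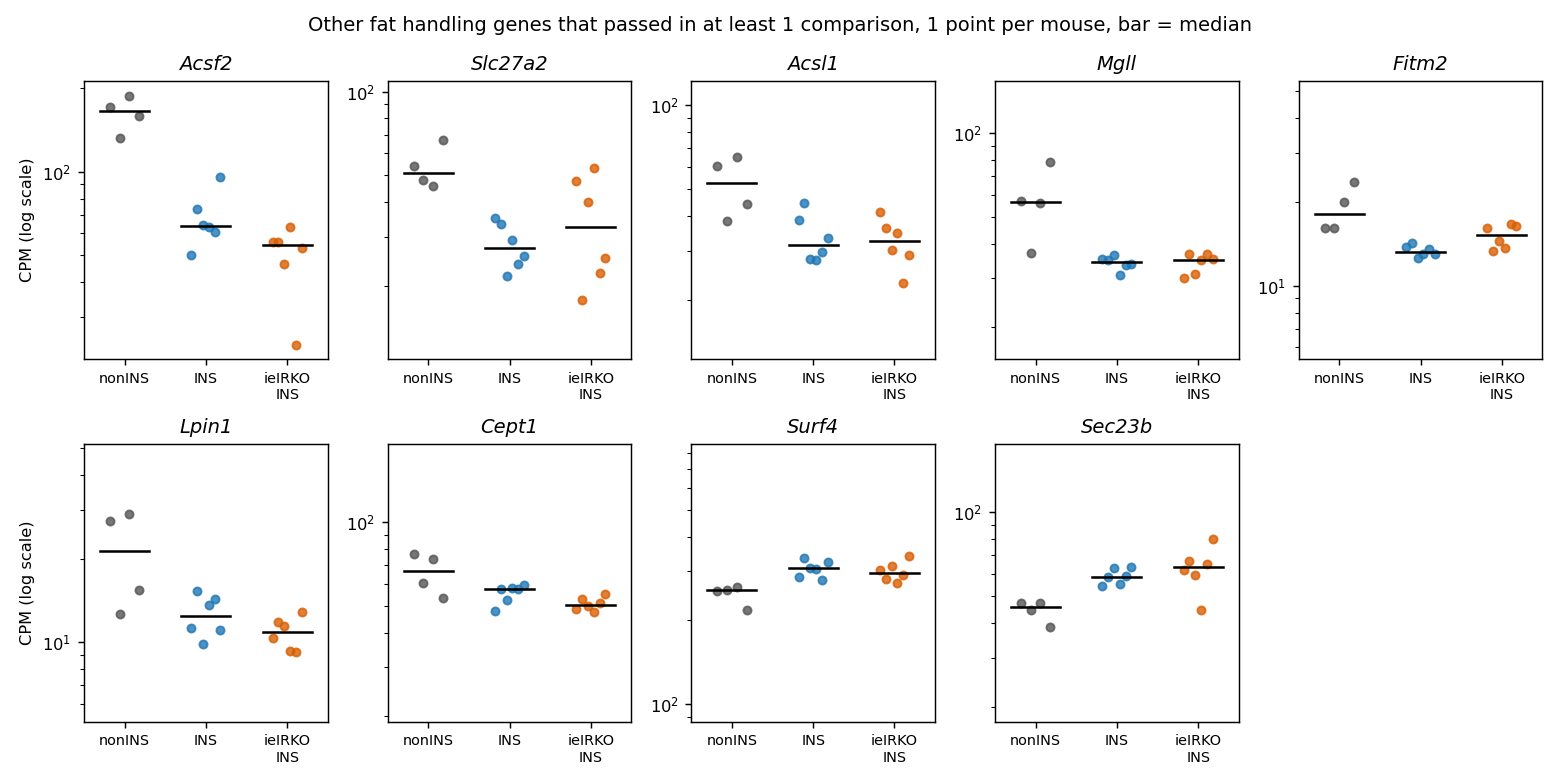
Level of the 9 other fat handling genes that passed in at least 1 comparison, in CPM on a log axis, with 1 point per mouse and a bar at the group median. *Acsf2* and *Mgll* lie lower in every insulin-treated mouse than in every saline-treated mouse, and *Surf4* lies higher.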

How the data were processed

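Ileal whole-wall RNA of 16 mice in 3 groups (n = 4, 6 and 6) was sequenced. For each mouse the authors deposited 1 table of raw read counts per gene, made in CLC Genomics Workbench against GRCm38. The strand setting and the handling of multi-mapping reads are not given in the sources used here, so reads of genes on the opposite strand could be included. The largest such overlap among the members was *Trmt10a* over *Mttp*, with 29 to 112 reads.

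These counts were the input of edgeR 4.0.16 (R 4.3.3, with limma 3.58.1). filterByExpr (minimum count 10, minimum total 15) left 15267 of 22872 genes with a count. After TMM normalization, a quasi-likelihood model was fitted to all 3 groups, and p-values were adjusted by the Benjamini-Hochberg method over all genes tested. CPM were computed after TMM, log2 CPM with a prior count of 2, and 95% confidence intervals with the normal quantile. Exact permutation tests were two-sided and used 210 or 924 arrangements. Exon lengths and positions were from GENCODE M21. The members and lists were chosen with earlier results of these data known. Members are named throughout, list genes where they passed in at least 1 comparison, and the non-member genes with the highest Pearson r to the mean of the members or to *Fabp1*. The method was tested on simulated data. Alternatives were DESeq2 1.42.0, upper-quartile normalization, scaling to pan-epithelial genes, members left out of the library sizes, the likelihood ratio test, a fit of only the groups compared, no filter, a filter of at least 10 counts in each library, a prior count of 0.5, the replicate number as a block, and leaving out each library, or ieIRKO-STAM-INS replicates 2 and 3 together. Replicates differed by more than counting noise. Figures were drawn with matplotlib 3.10.9. Of the genes named by correlation, 1 is not reported here.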

Additional observations from a re-analysis of the deposited data

Results flagged for a closer look

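Each of the 10 genes was checked in each of the 3 groups for a mouse far from the rest of its group, and none of the 30 checks found one, where chance gives about 1.5.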

How the results depend on the processing

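Of 610 refits of the members' fold changes, 584 kept their direction and side of the threshold. *Fabp1* ranged from -2.81 to -2.35 with insulin and passed in 18 of 19 fits, with adjusted p from 0.000325 to 0.0659. In ieIRKO mice against saline-treated controls it passed in 18 of 20. Replicate numbers gave no clear pairing of the mice. Of 14 same-numbered pairs, 4 had a correlation over 0.1, and 3 of 16 libraries correlated best with their own number. These values (r from -0.094 to 0.179) cannot exclude a shared litter, cage or day, which the sources used here do not give for each mouse. With the replicate block, 0 members passed in either comparison with saline-treated controls (*Fabp1* -2.35, adjusted p = 0.0659, and -2.13, adjusted p = 0.0679), and *Apoa1* with insulin was 0.046 and *Mttp* in the ieIRKO mice against saline-treated controls 0.041.

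With insulin, 1602 genes passed, of which 35.6% were higher, and 728 with 18.4% higher after scaling to pan-epithelial genes. Leaving out single libraries gave 824 (without Control-STAM-nonINS replicate 1) to 1877 genes and 1 to 2 members. Between the genotypes, 34 genes passed, 123 with DESeq2, 90 with the likelihood ratio test and 29 to 50 without single libraries, each with 0 members. In ieIRKO mice against saline-treated controls, 2036 genes passed with 43.1% higher, 773 with 30.4% higher after pan-epithelial scaling, 1038 with only the groups compared, 1270 without ieIRKO-STAM-INS replicates 2 and 3, and 1093 (without Control-STAM-nonINS replicate 1) to 2274 without single libraries. There, 2 members passed with DESeq2, with at least 10 counts in every library and with the likelihood ratio test, *Apoc3* being the addition, and 0 (without Control-STAM-nonINS replicate 3) to 3 (without ieIRKO-STAM-INS replicate 1) without single libraries.

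Directions near 0 turned when single libraries were left out. With insulin, *Apoa1* ranged from -0.209 to 0.042 and *Mttp* from -0.094 to 0.219. Between the genotypes, *Mttp* ranged from -0.357 to 0.002, *Fabp1* from -0.025 to 0.552 and *Insr* from -0.003 to 0.163. In ieIRKO mice against saline-treated controls, *Apob* ranged from -0.02 to 0.515, *Mttp* from -0.243 to 0.049 and *Apoa4* from -0.573 to 0.545, and *Apoa4* was -0.027 without ieIRKO-STAM-INS replicates 2 and 3. The causes were not tested. Of 412 refits of the other named genes, 58 lost their call (with insulin, those of *Acsl1*, *Lpin1* and *Slc27a2* under the replicate block, adjusted p = 0.0709, 0.0854 and 0.0629, and those of *Surf4*, *Sec23b* and *Fitm2* under pan-epithelial scaling, 0.32, 0.233 and 0.0723), 5 gained one and 1 turned. Under pan-epithelial scaling the log2 fold changes of *Surf4*, *Sec23b* and *Fitm2* were 0.243, 0.344 and -0.623, against 0.305, 0.408 and -0.508 in the main fit. A prior count of 0.5 changed the members' correlations by at most 0.01. The lowest member count was 42 reads, and what set the precision was not tested.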
